A study of Kandelia obovata with 24 samples.

Results

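In *Kandelia obovata* leaves, 98 unigenes had their peak transcript level in the libraries labelled ABA-100 (-4.1 ℃). They were chosen by their own levels in all 24 libraries. A unigene was a member when its mean log2(TPM + 1) in those 3 libraries was at least 1 above its mean in each of the other 7 groups. TPM is a relative abundance of a transcript, corrected for transcript length and scaled to the same total in every library. The rule found 98 of the 21523 unigenes with at least 1 TPM in 3 or more libraries, out of 33344 in the table, after 12 hub unigenes of the study's co-expression network had been set aside. The same rule found 85 unigenes for ABA-100 (10.2 ℃), 30 for CK (-5.3 ℃), 26 each for CK (10.2 ℃) and ABA-100 (9.7 ℃), 17 for CK (-4.1 ℃), 14 for ABA-100 (-5.3 ℃) and 5 for CK (9.7 ℃).

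*K. obovata* is a mangrove tree. Wild-type seedlings, 3 years old when chosen for transplanting to a field site farther north, were sampled there through a natural frost. The 8 groups of 3 libraries were control seedlings (CK) and seedlings whose leaves were to receive abscisic acid at 100 mg L-1 (ABA-100). Both were sampled on December 1 at 10.2 ℃, on December 2 at -4.1 ℃ and then at -5.3 ℃, and on December 3 at 9.7 ℃. The same seedlings were sampled at each stage, and 3 biological replicates were stated per group. Each treatment had 3 subplots, and how the replicates relate to the subplots is not stated. The p-values below measure the spread between these libraries, which were taken as unpaired.

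Abscisic acid is a plant hormone that rises under drought and cold. Binding to its receptors blocks a class of protein phosphatases, which frees protein kinases to activate transcription factors of stress genes, and it also closes stomata. Frost draws water out of plant cells as ice forms between them, so genes of cold and water deficit overlap in many plants. A unigene is a set of transcripts that the Trinity assembler grouped as 1 gene without a genome. The deposited table gives each unigene only an assembly identifier, so no function, position or sequence can be given for the members, and the leaf label could not be checked against marker genes.

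The labels call for care before any result. The study describes the spray as following the sampling at 10.2 ℃, so leaves labelled ABA-100 (10.2 ℃) were taken unsprayed, yet 1064 of the 21523 unigenes (4.94%) differed there between ABA-100 and CK. A difference between ABA-100 and CK libraries is therefore a difference between labelled groups, and ABA and any other difference between the seedlings or labels cannot be told apart. The stage labels are in doubt with the treatment labels. The submitters also gave each group a short code, A0, A4, B0 and B4 for CK and C0, C4, D0 and D4 for ABA-100, in the order 10.2, -4.1, -5.3 and 9.7 ℃. What the letters and digits stand for is not given in the sources used here, and groups were kept as labelled, so that every treatment and stage named below, CK stages included, is that of the label. Across all unigenes, CK (-4.1 ℃) replicate 3 was closest to CK (9.7 ℃) replicate 3 (Pearson's r = 0.968), while every other library was closest to a library of its own group. In RNA from whole leaves, fewer cells of a type and less RNA per cell cannot be told apart.

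Together the 98 unigenes made up 0.342% of all TPM in the library where they were highest and 0.0274% where they were lowest. Their summed level was 3425, 3289 and 3382 TPM in the ABA-100 (-4.1 ℃) libraries, which the rule fixed as the highest group. The next levels were those of ABA-100 (9.7 ℃) with 1375, 1215 and 1233 TPM and of ABA-100 (10.2 ℃) with 1105, 1084 and 1157 TPM. These 3 groups did not overlap with each other or with any of the remaining libraries.

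ABA-100 (-5.3 ℃), the stage sampled next after the peak, had a summed level of 573, 583 and 583 TPM. The CK libraries had 529, 520 and 615 TPM at -5.3 ℃, 418, 439 and 380 TPM at 9.7 ℃, 361, 329 and 387 TPM at -4.1 ℃, and 274, 294 and 302 TPM at 10.2 ℃. CK and ABA-100 overlapped at -5.3 ℃ and at no other stage. The median over the members also placed ABA-100 (-4.1 ℃) highest, which the rule fixed for the group means as well. Unlike the sums, the medians of ABA-100 at 9.7 and 10.2 ℃ overlapped. The median level per library was 3.91 to 4.11 on the log2(TPM + 1) scale in ABA-100 (-4.1 ℃), 2.16 to 2.49 in ABA-100 (9.7 ℃), 2.21 to 2.25 in ABA-100 (10.2 ℃), and 0.80 to 1.95 in the remaining 15 libraries.

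**Figure D1:**
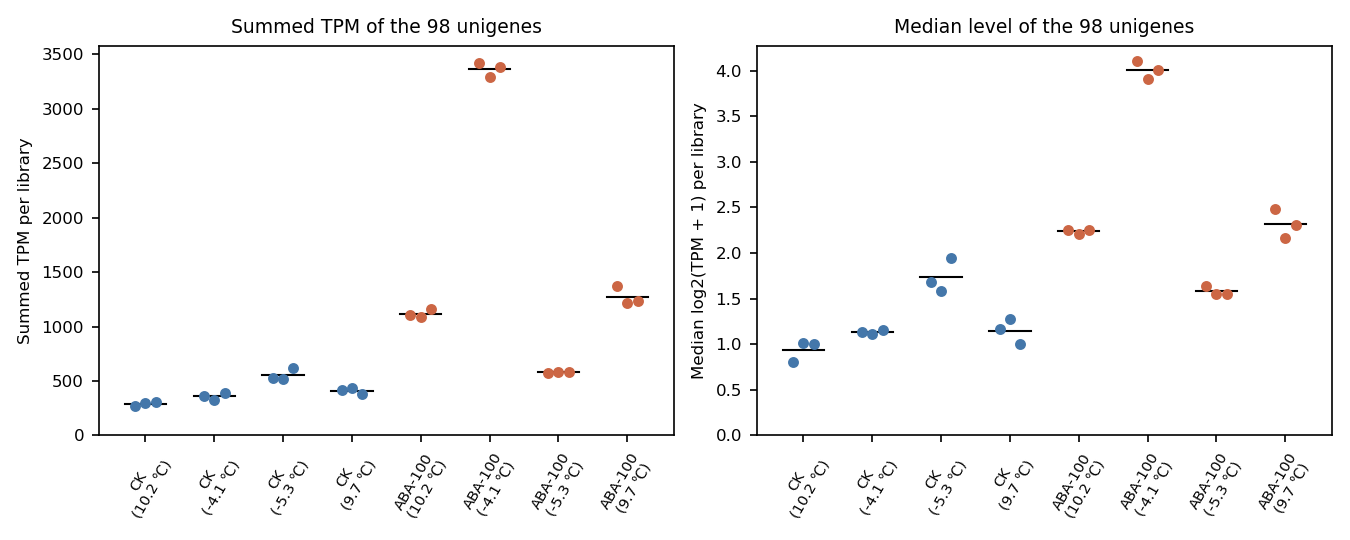
Summed TPM (left) and median log2(TPM + 1) (right) of the 98 unigenes in each library, on vertical axes that start at 0. Each point is a library, CK in blue and ABA-100 in red, and each black line is the mean of 3 libraries. The sums of ABA-100 (-4.1 ℃), 3289 to 3425 TPM, were fixed as highest by the rule, and those of ABA-100 at 9.7 and 10.2 ℃ came next.

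The members ranged widely in level and in how far they stood out. Their mean in ABA-100 (-4.1 ℃) ran from 1.85 to 398 TPM, with 58 members at 10 TPM or more, 17 at 50 or more and 8 at 100 or more. The gap, the difference in log2(TPM + 1) to the second highest group mean, ran from 1.0 to 2.48 with a median of 1.19. It was under 1.2 in 51 members, at least 1.5 in 15 and at least 2 in 5. In 71 of the 98 the lowest ABA-100 (-4.1 ℃) library lay above all 21 other libraries, which held for 3.64% of all unigenes tested. The rule used these values, so nothing is read from that share. The remaining 27 members overlapped with at least 1 other library, and 19 of them had a mean under 10 TPM at the peak.

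**Figure D2:**
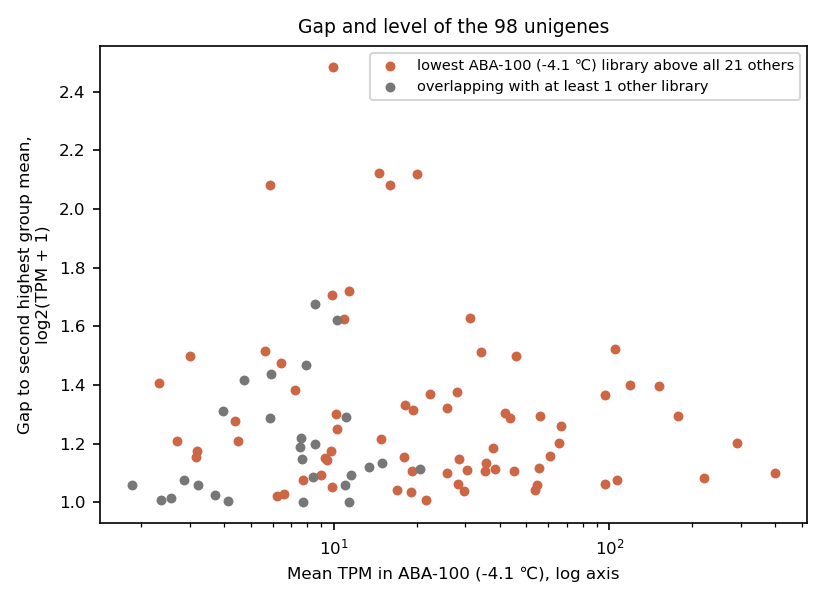
Gap to the second highest group mean, as a difference in log2(TPM + 1), against the mean TPM in ABA-100 (-4.1 ℃) on a log axis, with 1 point per member. Red points are the 71 members whose 3 peak libraries lay above all 21 others and grey points the 27 that overlapped, which lie mostly at low TPM.

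Most members were not restricted to the peak. A TPM above 0 was found for 59 members in all 24 libraries and for 93 in each of the 3 peak libraries. At least 1 TPM in 3 or more other libraries was found for 86 members. The other 12 passed the filter on low values only with the peak libraries, so their high level there was a condition of being tested at all. A single member stayed below 1 TPM in every other library, and 0 were listed at 0 throughout the other 21.

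The threshold of the rule cut through a continuous range. Just inside it were DN20178_c0_g1, DN5628_c0_g1 and DN15932_c0_g4, each with a gap of 1.0, and just outside were DN2337_c0_g1, DN18476_c0_g2 and DN5642_c0_g1, each with a gap of 0.99. The closeness to the threshold did not order them by reliability. DN5642_c0_g1, which was left out, had 56.9, 55.9 and 54.4 TPM at the peak and at most 34.9 TPM elsewhere. DN5628_c0_g1, which was taken, had 17.7, 2.02 and 14.4 TPM at the peak and 13.6 TPM in ABA-100 (10.2 ℃) replicate 3.

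Among members of at least 10 TPM, the SD of log2(TPM + 1) over the 3 peak libraries had a median of 0.058, against 0.060 over the 9966 tested unigenes of that level. Among the 40 members under 10 TPM the median SD was 0.382, against 0.134 for tested unigenes down to the level of the lowest member. The rule used the means of these 3 libraries, so the SDs describe the members and nothing is read from their difference. DN17280_c0_g1 had the largest SD, with 17.0, 0 and 8.65 TPM in the peak libraries and 0 to 4.33 TPM in the other 21.

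DN2519_c0_g3 had the largest gap, 2.48, with its values outside the peak close to 0. It had 9.25, 10.2 and 10.4 TPM there (9.93 ± 0.595, SD, n = 3) and no more than 1.53 TPM elsewhere. DN9674_c0_g1 had 15.6, 15.6 and 16.9 TPM at the peak and at most 4.89 TPM elsewhere, and its next highest values, 4.89 and 4.81 TPM, were both in CK (-4.1 ℃). Replicate 3 of that CK group had 0.90 TPM. DN9265_c0_g2 had 14.7, 11.8 and 17.2 TPM at the peak and at most 3.64 TPM in the other libraries, and DN5245_c0_g1 had 11.8, 11.1 and 11.1 TPM against at most 3.03 TPM. None of these 4 overlapped with another library.

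DN783_c0_g2 had 20.5, 21.1 and 18.6 TPM at the peak and at most 4.70 TPM elsewhere. DN8005_c0_g3 had 9.86, 11.4 and 8.27 TPM at the peak and at most 2.97 TPM elsewhere. DN1071_c0_g2 was listed at 0 in 19 libraries and had 7.59, 2.31 and 7.75 TPM at the peak. Its other values were 2.28 TPM in CK (10.2 ℃) replicate 3 and 2.14 TPM in CK (-5.3 ℃) replicate 2, just below its lowest peak library.

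The most abundant member was DN7363_c0_g1, with 399, 381 and 415 TPM at the peak. It had 252, 160 and 157 TPM in ABA-100 (9.7 ℃), 164, 167 and 178 TPM in ABA-100 (10.2 ℃) and 105, 99.3 and 109 TPM in ABA-100 (-5.3 ℃). In CK it had 53.4, 52.6 and 60.1 TPM at -5.3 ℃, 42.1, 36.5 and 39.2 TPM at 9.7 ℃, 27.6, 24.6 and 55.2 TPM at -4.1 ℃, and 31.7, 31.3 and 29.2 TPM at 10.2 ℃. All 12 ABA-100 libraries thus lay above all 12 CK libraries, and both ABA-100 (9.7 ℃) replicate 1 and CK (-4.1 ℃) replicate 3 stood well above the others of their groups.

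DN823_c0_g1 had a similar shape but a lower base, with 176, 178 and 179 TPM at the peak. It had 68.6, 69.1 and 78.4 TPM in ABA-100 (10.2 ℃), 74.0, 45.6 and 46.6 TPM in ABA-100 (9.7 ℃) and 8.30, 10.4 and 9.26 TPM in ABA-100 (-5.3 ℃). Its CK values ran from 1.49 to 9.79 TPM, and at -5.3 ℃ the groups overlapped.

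DN783_c0_g1 had 120, 121 and 114 TPM at the peak, against 1.01, 1.16 and 1.35 TPM in CK at the same stage. It had 43.2, 45.5 and 43.8 TPM in ABA-100 (10.2 ℃), 21.3, 24.3 and 21.7 TPM in ABA-100 (9.7 ℃) and 3.82, 4.05 and 4.29 TPM in ABA-100 (-5.3 ℃). DN783_c0_g1 and DN783_c0_g2 come from the same assembly cluster and both peaked here.

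DN1207_c0_g1 had 155, 153 and 145 TPM at the peak, 57.9, 56.9 and 55.2 TPM in ABA-100 (9.7 ℃), 49.5, 48.1 and 47.9 TPM in ABA-100 (10.2 ℃) and 35.8, 36.1 and 32.8 TPM in ABA-100 (-5.3 ℃). Each of these lay above its highest CK value of 29.1 TPM.

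In other abundant members ABA-100 and CK lay closer outside the peak. DN7013_c0_g1 had 290, 299 and 281 TPM at the peak. It had 74.6, 74.1 and 73.5 TPM in ABA-100 and 42.9, 44.5 and 47.0 TPM in CK at 10.2 ℃, and 106, 135 and 138 TPM against 91.1, 100.2 and 89.1 TPM at 9.7 ℃. ABA-100 was thus higher without overlap at both stages. At -5.3 ℃ it was lower without overlap, with 74.5, 79.6 and 76.9 TPM against 102, 108 and 88.3 TPM. DN2798_c0_g1 had 222, 217 and 224 TPM at the peak. It had 59.8, 59.1 and 59.7 TPM in ABA-100 and 30.1, 31.2 and 33.1 TPM in CK at 10.2 ℃, and 145, 87.8 and 88.3 TPM against 34.1, 35.6 and 29.8 TPM at 9.7 ℃. At -5.3 ℃ it had 50.9, 49.4 and 52.1 TPM in ABA-100 and 49.9, 50.9 and 49.2 TPM in CK, so that the groups overlapped there and at neither of the other stages.

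**Figure D3:**
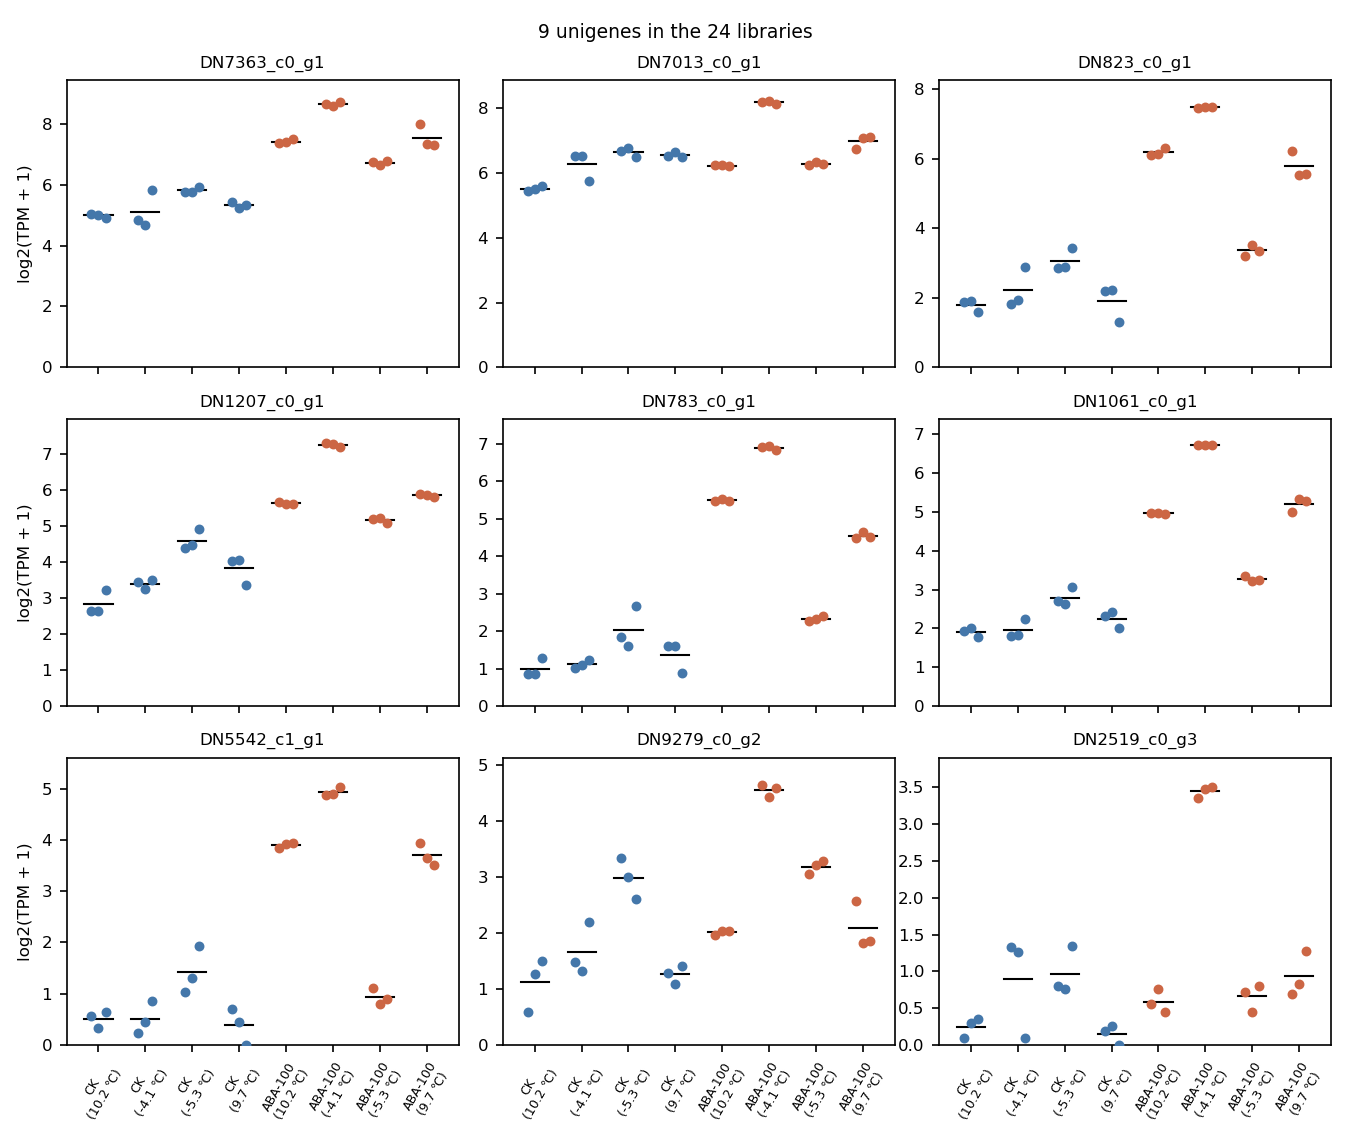
Level of 9 members as log2(TPM + 1) in each library, 1 panel per unigene, with vertical axes that start at 0 and differ between panels. Points are libraries, CK in blue and ABA-100 in red, and lines are means of 3 libraries. DN1061_c0_g1 and DN783_c0_g1 were below 10 TPM in ABA-100 (-5.3 ℃) and higher again at 9.7 ℃, whereas DN2519_c0_g3 stayed at or below 1.53 TPM outside the peak.

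The group ranked second was most often ABA-100 (9.7 ℃), in 49 members (50.0%), followed by ABA-100 (10.2 ℃), in 26 (26.5%). Among the 2634 tested unigenes that also had their highest mean in ABA-100 (-4.1 ℃) but were not members, the shares were 40.5% and 16.4%, so these groups were the most frequent there too. CK (-5.3 ℃) was second in 8, ABA-100 (-5.3 ℃) in 7, CK (10.2 ℃) and CK (9.7 ℃) in 3 each and CK (-4.1 ℃) in 2. In 56 members the 3 highest means were those of ABA-100 at -4.1, 9.7 and 10.2 ℃. The lowest mean was in CK (10.2 ℃) for 55 members, CK (-4.1 ℃) for 21, CK (9.7 ℃) for 13, ABA-100 (-5.3 ℃) for 6 and CK (-5.3 ℃) for 3. Within CK the highest mean was at -5.3 ℃ for 58 members. The 3 highest groups, the lowest group and the order within CK were not counted for other unigenes, so they only describe the members. Seen from the other side, ABA-100 (-4.1 ℃) was second for 15 of the 85 unigenes peaking in ABA-100 (10.2 ℃) (17.6%) and for 5 of the 26 peaking in ABA-100 (9.7 ℃) (19.2%).

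**Figure D4:**
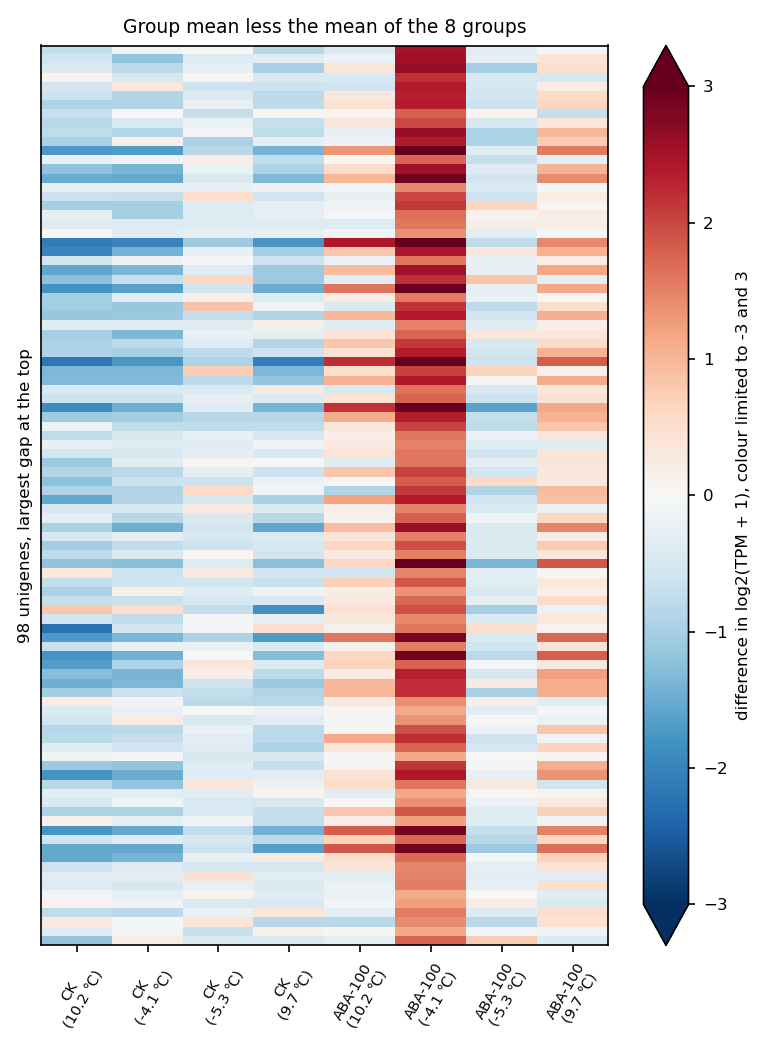
Group mean less the mean of the 8 groups, in log2(TPM + 1), with 1 row per member ordered from the largest gap at the top. Colours are limited to -3 and 3, red above and blue below. The ABA-100 (-4.1 ℃) column was fixed as highest by the rule, and ABA-100 at 10.2 and 9.7 ℃ are red in many rows where the CK columns are blue.

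Contrasts among the 7 other groups did not enter the rule in the same way and were tested. limma was fitted to log2(TPM + 1) of all 21523 unigenes, with Benjamini-Hochberg adjustment over all of them. Calls needed an absolute log2 fold change above 1 together with an adjusted p no higher than 0.05. The contrasts share groups with each other, and the rule caps each of the 7 means at 1 below the peak without setting their order. The 12 members that passed the filter only with the peak libraries are included below. With those libraries left out, 86 members were tested, and the same number were called in each contrast between a pair of groups. Their median log2 fold change of ABA-100 against CK was then 1.12 in place of 0.94 at 10.2 ℃ and 1.03 in place of 0.91 at 9.7 ℃. Shares of all unigenes called were counted for the main fit only. For comparison, the contrasts that the rule did use called 88 of the 98 as higher in ABA-100 than in CK at -4.1 ℃ (4.6% of all unigenes) and 81, 80 and 77 as higher at the peak than in ABA-100 at 10.2, -5.3 and 9.7 ℃ (2.09%, 3.41% and 0.873%), which is a description only.

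At 10.2 ℃, labelled as the stage before the frost, 42 of the 98 members were higher in ABA-100 than in CK and 0 were lower, against 3.33% and 1.61% of all unigenes tested. Their median log2 fold change was 0.94, against -0.14 over all unigenes, and in 62 members all ABA-100 libraries lay above all CK libraries, against 12.2% of unigenes. DN1061_c0_g1 had the smallest adjusted p. It had 30.3, 30.6 and 29.9 TPM in ABA-100 and 2.84, 3 and 2.41 TPM in CK, with a log2 fold change of 3.06 (SE 0.13, limma adjusted p = 1.45e-12). DN10119_c0_g1 had 9.14, 8.33 and 8.66 TPM against 0.79, 0.65 and 0.66 TPM, a log2 fold change of 2.51 (SE 0.11, limma adjusted p = 2.78e-12). The larger changes were those of DN783_c0_g1 and DN823_c0_g1, with log2 fold changes of 4.50 (SE 0.21) and 4.39 (SE 0.26).

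At 9.7 ℃, labelled as the stage after the frost, 37 members were higher in ABA-100 than in CK and 0 were lower, against 3.59% and 0.423% of all unigenes. The median log2 fold change was 0.91, against 0.04 over all unigenes, and 62 members had no overlap in this direction, against 22.4%. DN1061_c0_g1 again had the smallest adjusted p, with 31.0, 39.1 and 37.7 TPM against 3.97, 4.34 and 3.01 TPM and a log2 fold change of 2.96 (SE 0.13, limma adjusted p = 7.76e-12). DN10119_c0_g1 had 10.6, 9.70 and 10.1 TPM against 1.48, 1.29 and 1.33 TPM, with a log2 fold change of 2.23 (SE 0.11, limma adjusted p = 5.15e-11). In ABA-100 (9.7 ℃) replicate 1, DN7363_c0_g1, DN2798_c0_g1 and DN823_c0_g1 were at 1.57 to 1.65 times the level of the other libraries of the group. Without that library 41 members were called higher and 0 lower, and the share of all unigenes was not counted for that fit.

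The contrasts at 10.2 and 9.7 ℃ share no library. They called 31 members in common, which is 73.8% of the 42 and 83.8% of the 37. The overlap among all unigenes called was not counted, so this share is not read as a trait of the members. A further 17 were higher at 1 of these stages, so that 48 members were higher at either and 50 at neither. Of the 58 members with at least 10 TPM at the peak, 36 were higher at 10.2 ℃ and 36 at 9.7 ℃. Among the 9966 tested unigenes of that level, the shares were 3.67% and 4.1%.

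At -5.3 ℃, the stage sampled between them, 0 members were higher in ABA-100 than in CK and 2 were lower, against 0.46% and 1.36% of all unigenes. By limma 27 members had an unadjusted p under 0.05 in either direction, as had 38.8% of all unigenes. The median log2 fold change was -0.00 for the members and -0.15 for all unigenes, and the groups did not overlap in 9 members with ABA-100 higher and in 19 with ABA-100 lower, against 8.31% and 34.3%. The 2 members called were DN32684_c0_g1 and DN32448_c0_g1.

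DN32684_c0_g1 had 2.46, 3.07 and 1.94 TPM in ABA-100 and 6.88, 6.32 and 20.0 TPM in CK at -5.3 ℃, with a log2 fold change of -1.62 (SE 0.29, limma adjusted p = 0.000424). DN32448_c0_g1 had 0.16, 0.33 and 0.14 TPM against 1, 0.83 and 4.15 TPM, with a log2 fold change of -1.14 (SE 0.28, limma adjusted p = 0.00437). In both, CK (-5.3 ℃) replicate 3 was far above the other libraries of its group. Without it the log2 fold change of DN32684_c0_g1 was -1.13 and it was still called, whereas that of DN32448_c0_g1 was -0.66 and it was no longer called. With only the libraries of these 2 groups in the fit, neither was called (limma adjusted p = 0.0579 for DN32684_c0_g1 and 0.124 for DN32448_c0_g1).

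The difference between stages was itself tested. The log2 fold change of ABA-100 against CK was lower at -5.3 ℃ than at 10.2 ℃ in 47 members and higher in 0, against 2.76% and 0.506% of all unigenes, with a median difference of -1.20 for the members and -0.00 for all unigenes. With the peak libraries left out of the fit, it was lower in 46 of 86 members and higher in 0, with a median of -1.42. For DN783_c0_g1 the difference was -4.20 (SE 0.29, limma adjusted p = 5.74e-09) and for DN1061_c0_g1 it was -2.58 (SE 0.18, limma adjusted p = 7.24e-09). Between 9.7 and 10.2 ℃ the log2 fold change differed in 7 members, 2 higher and 5 lower at 9.7 ℃, against 3.28% and 1.25% of all unigenes. DN783_c0_g1 was among the 5 that were lower, with a difference of -1.31 (SE 0.29, limma adjusted p = 0.00296).

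**Figure D5:**
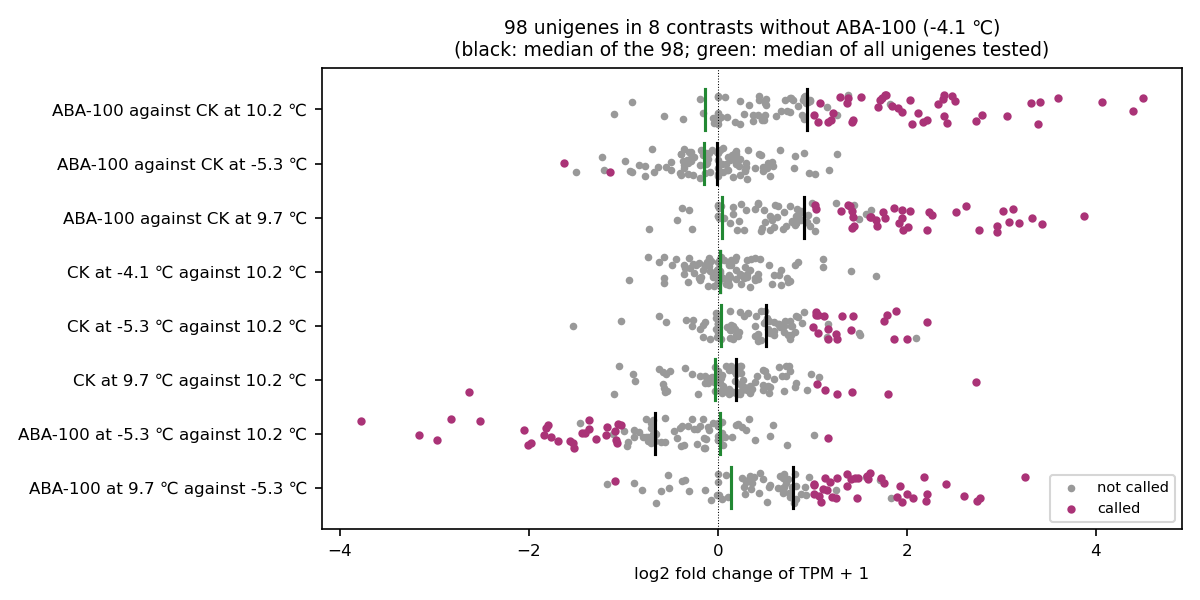
Log2 fold change of TPM + 1 of the 98 unigenes in the 8 contrasts that include no ABA-100 (-4.1 ℃) library, with 1 point per member, purple where called and grey where not. Black lines are the medians of the 98 and green lines those of all unigenes tested. ABA-100 against CK called 42 members higher at 10.2 ℃, 37 higher at 9.7 ℃ and 2 lower at -5.3 ℃, against 3.33%, 3.59% and 1.36% of all unigenes tested.

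Among the groups labelled ABA-100, 28 members were lower at -5.3 ℃ than at 10.2 ℃ and 1 was higher, against 2.29% and 0.632% of all unigenes, with a median log2 fold change of -0.66 for the members and 0.02 for all unigenes. In 54 members all libraries at -5.3 ℃ lay below all libraries at 10.2 ℃, against 14.6% of unigenes. DN783_c0_g1 fell by 3.16 on the log2 scale (SE 0.21, limma adjusted p = 2.18e-09). DN5542_c1_g1 had 1.15, 0.74 and 0.85 TPM at -5.3 ℃ and 13.3, 14.2 and 14.4 TPM at 10.2 ℃, a log2 fold change of -2.97 (SE 0.21, limma adjusted p = 5.48e-09). The 2 groups did not overlap in either unigene.

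From -5.3 to 9.7 ℃ in ABA-100, 36 members rose and 1 fell, against 3.14% and 0.335% of all unigenes, with a median log2 fold change of 0.79 for the members and 0.14 for all unigenes. DN5542_c1_g1 reached 14.4, 11.6 and 10.4 TPM at 9.7 ℃, a log2 fold change of 2.77 (SE 0.21, limma adjusted p = 3.22e-08), and DN1061_c0_g1 rose from 9.24, 8.32 and 8.53 TPM by 1.92 on the log2 scale (SE 0.13, limma adjusted p = 7.93e-09). In 57 members all libraries at 9.7 ℃ lay above all libraries at -5.3 ℃, against 32.3% of unigenes.

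DN9279_c0_g2 was the only member called in the opposite direction in both of these contrasts. It had 2.87, 3.09 and 3.11 TPM in ABA-100 at 10.2 ℃, 7.27, 8.19 and 8.66 TPM at -5.3 ℃ and 4.96, 2.53 and 2.63 TPM at 9.7 ℃. The log2 fold change was 1.17 from 10.2 to -5.3 ℃ (SE 0.24, limma adjusted p = 0.00301) and -1.09 from -5.3 to 9.7 ℃ (SE 0.24, limma adjusted p = 0.00333). It had 23.8, 20.4 and 22.8 TPM at the peak and, in CK, 9.08, 6.93 and 5.11 TPM at -5.3 ℃ against 0.51 to 3.57 TPM at the other stages. The fall from -5.3 to 9.7 ℃ was no longer called without ABA-100 (9.7 ℃) replicate 2 (log2 fold change -0.96) or replicate 3 (-0.98).

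Among the groups labelled CK fewer members were called. From 10.2 to -4.1 ℃ limma called 0 members in either direction, against 0.13% and 0.237% of all unigenes, 14 members had an unadjusted p under 0.05, as had 13.6% of all unigenes, and the median log2 fold change was 0.02 for the members and for all unigenes. Without CK (-4.1 ℃) replicate 3, the library closest to another group, 3 members were called higher, with no share of all unigenes counted for that fit. From 10.2 to -5.3 ℃ 19 members rose and 0 fell, against 1.15% and 0.362% of all unigenes, with medians of 0.51 and 0.03. With only the libraries of these 2 groups in the fit, 7 members were higher and 1 was lower, again without a share of all unigenes. All libraries at -5.3 ℃ lay above all libraries at 10.2 ℃ in 46 members, against 17% of unigenes.

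DN3559_c0_g2 had 11.4, 10.2 and 16.8 TPM in CK at -5.3 ℃ and 2.42, 1.84 and 2.93 TPM at 10.2 ℃, a log2 fold change of 2.01 (SE 0.17, limma adjusted p = 2.49e-07). DN1207_c0_g1 had 20.1, 21.1 and 29.1 TPM against 5.24, 5.2 and 8.27 TPM, a log2 fold change of 1.76 (SE 0.16, limma adjusted p = 7.67e-07). Neither unigene overlapped between these stages. CK (-5.3 ℃) replicate 3 was the highest of its group in both, as in the summed level of the members. Without it 14 members were called higher, and the share of all unigenes was not counted for that fit.

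From 10.2 to 9.7 ℃ in CK, 6 members were higher and 1 was lower, against 0.488% and 0.506% of all unigenes. DN1804_c0_g1 had 9.75, 9.49 and 8.18 TPM at 9.7 ℃ and 3.42, 3.45 and 3.97 TPM at 10.2 ℃, a log2 fold change of 1.13 (SE 0.09, limma adjusted p = 7.6e-08). DN10121_c0_g1 had 7.38, 8.84 and 3.92 TPM against 1.19, 1.2 and 1.01 TPM, a log2 fold change of 1.80 (SE 0.19, limma adjusted p = 8.93e-06). Both were thus higher in every library labelled CK (9.7 ℃) than in every library labelled CK (10.2 ℃).

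DN12262_c2_g1 went the other way, listed at 0 in all CK (9.7 ℃) libraries and at 4.83, 4.68 and 6.28 TPM in CK (10.2 ℃) (limma adjusted p = 0.0193). It was also unsteady at the peak, with 18.6, 14.8 and 7.05 TPM, and was no longer called without CK (10.2 ℃) replicate 3 (adjusted p = 0.0666), CK (9.7 ℃) replicate 1 (0.0533) or CK (9.7 ℃) replicate 2 (0.0524), all by limma.

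Among the 58 members with at least 10 TPM at the peak, 24 were lower in ABA-100 at -5.3 than at 10.2 ℃, 34 rose in ABA-100 from -5.3 to 9.7 ℃, 18 were higher in CK at -5.3 than at 10.2 ℃, and 39 had a lower log2 fold change of ABA-100 against CK at -5.3 than at 10.2 ℃. Of the 9966 tested unigenes of that level, 1.95%, 3.07%, 1.51% and 3.39% were called in these directions. Unigenes at low TPM can hardly pass the fold threshold on the log2(TPM + 1) scale. After removal of the group means, the deviations of a pair of members were hardly correlated across the 24 libraries. The median r over pairs was 0.04 for the members, 0.12 for those of at least 10 TPM and 0.03 for all unigenes tested, as a description, since all pairs share the same libraries. It was not computed for the tested unigenes of at least 10 TPM, so the 0.12 has no comparison at its own level.

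Trinity places transcripts with shared sequence in a cluster, and unigenes of the same cluster may be alleles, gene copies or fragments among which RSEM divides reads. The 98 members came from 97 clusters. In 33 of them the cluster held at least 1 other tested unigene that was not a member, 43 such unigenes in all. Of these 43, 19 (44.2%) also had their highest mean in ABA-100 (-4.1 ℃), against 12.3% of the 21425 tested unigenes that were not members. How reads were divided within a cluster was not tested.

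DN1061_c0_g2 was close to the rule, with a mean of 16.1 TPM at the peak, 6.90 TPM in ABA-100 (10.2 ℃) and a gap of 0.97. DN1207_c0_g2 had 67.2 TPM at the peak, with ABA-100 (9.7 ℃) next at 40.9 TPM. In other clusters the unigenes parted. DN7013_c0_g3 had its highest mean, 269 TPM, in CK (-5.3 ℃) and 92.8 TPM where DN7013_c0_g1 peaked. DN9237_c0_g4 peaked at 106 TPM, whereas DN9237_c0_g3 was among the abundant transcripts of all groups, from 7873 TPM in CK (-5.3 ℃) to 11932 TPM in ABA-100 (-5.3 ℃).

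Of the 12 hub unigenes that were set aside, 2 would have met the rule. DN3958_c0_g1, annotated to heme biosynthesis, had 73.8, 76.6 and 71.2 TPM in ABA-100 (-4.1 ℃), 32.1, 37.4 and 38.3 TPM in ABA-100 (9.7 ℃) and a gap of 1.02. DN8005_c0_g2, annotated to sphingolipid metabolism, had 39.2, 41.7 and 36.1 TPM, then 17.5, 16.6 and 17.4 TPM in ABA-100 (9.7 ℃), and a gap of 1.14. It shares a cluster with the member DN8005_c0_g3, whose peak was at 9.85 ± 1.58 TPM (SD, n = 3). In all, 5 hubs had their highest mean in ABA-100 (-4.1 ℃). The other three, annotated to a serine/threonine kinase activity, a serine/threonine phosphatase activity and the nucleus, had gaps of 0.94, 0.98 and 0.92. All 5 came from the network module named turquoise, which was built on these same libraries and is no independent grouping.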

How the data were processed

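The authors made and sequenced 24 leaf RNA libraries. Reads were trimmed with SeqPrep and Sickle, assembled with Trinity without a genome and quantified per unigene with RSEM, in versions not given in the sources used here. The deposited values are TPM, which the authors scaled by transcript length and to a common total per library. The study lists the clean reads of each library. The reads behind each value are not given, so no counting error can be stated. The authors' DEGs came from DESeq2, which needs counts and was not repeated.

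Libraries were grouped by their labels. From TPM, log2(TPM + 1) was taken for unigenes with at least 1 TPM in 3 or more libraries, and 1 mean per group was fitted with limma 3.58.1 (trend, R 4.3.3) over all 24 libraries. A fold change on this scale understates that of unigenes at low TPM. The fit was tested on simulated data. Tables and figures were made with pandas 2.3.3 and matplotlib 3.10.9. The members and lists were chosen with earlier results of these data known. Named members were those with the 8 largest gaps, the 6 highest peak levels, up to 2 in each direction with the smallest adjusted p per tested contrast, the 3 on each side of the gap threshold, the most variable member, the member with the highest TPM outside the peak, and the hubs that met the rule. Cluster relatives, the other hubs and members given for a difference between stages were named after their values had been seen. Alternatives were other filters, a pseudocount of 0.1, median-of-ratios scaling, quantile normalization, other gaps, group medians, other sets of libraries, adjusted p alone, each library left out and a replicate block.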

Additional observations from a re-analysis of the deposited data

Results flagged for a closer look

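The difference between ABA-100 and CK was compared between stages. In 47 of the 98 unigenes the log2 fold change at -5.3 ℃ differed from that at 10.2 ℃ by the interaction contrast of the limma fit, lower at -5.3 ℃ in all 47, against 2.76% of all unigenes tested. In 7 of the 98 unigenes the log2 fold change at 9.7 ℃ differed from that at 10.2 ℃, higher at 9.7 ℃ in 2 and lower in 5. Of all unigenes 3.28% were higher and 1.25% lower, so that the higher ones were no more frequent among the 98. These contrasts include no ABA-100 (-4.1 ℃) library, and both use the libraries at 10.2 ℃. The 98 include the 12 members that passed the filter only with the ABA-100 (-4.1 ℃) libraries. With those libraries left out, 46 and 7 of 86 members were called.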

How the results depend on the processing

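The number of members depended on how the rule was set. It was 276 with a pseudocount of 0.1, 207 with a gap of at least 0.8, 15 with a gap of at least 1.5 and 197 with group medians. With each library left out in turn it was 93 to 187, the highest without ABA-100 (-4.1 ℃) replicate 2. For the 98 members, adjusted p alone called 15 in ABA-100 against CK at -5.3 ℃, 57 in that at 9.7 ℃, 3 in CK at -4.1 against 10.2 ℃, 36 in CK at -5.3 against 10.2 ℃, 15 in CK at 9.7 against 10.2 ℃, 45 in ABA-100 at -5.3 against 10.2 ℃ and 17 for the change of effect from 10.2 to 9.7 ℃. Of the 15 in ABA-100 against CK at -5.3 ℃, 5 were higher and 10 lower in ABA-100. The pseudocount of 0.1 called 8 in ABA-100 against CK at -5.3 ℃ and 1 in CK at -4.1 against 10.2 ℃. Shares of all unigenes called were not counted under the alternatives, so these counts show only how the calls shifted with the setting. Fitting only the libraries being compared called 0 in ABA-100 against CK at -5.3 ℃ and 8 in CK at -5.3 against 10.2 ℃, 7 higher and 1 lower.

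With each library left out in turn, members called were 41 to 45, 2 to 5 and 36 to 41 for ABA-100 against CK at 10.2, -5.3 and 9.7 ℃. They were 0 to 3, 14 to 21 and 5 to 8 for CK at -4.1, -5.3 and 9.7 ℃ against 10.2 ℃. They were 28 to 31 for ABA-100 at -5.3 against 10.2 ℃, 34 to 38 at 9.7 against -5.3 ℃, and 47 to 48 and 7 to 9 for the change of effect at -5.3 and 9.7 ℃. No named result reversed, and 552 of 560 values of named members under an alternative kept their side of the threshold. Adjusted p alone could not change a label, and most left-out libraries lay outside the contrast, so this count overstates steadiness. With only the libraries of the contrast in the fit, 15 named results stayed called and 2 did not. Median-of-ratios scaling called 48, 35 and 31 where the main fit called 42 at 10.2 ℃, 37 at 9.7 ℃ and 37 in ABA-100 from -5.3 to 9.7 ℃. Quantile normalization called 45, 35 and 28 there, and 15 in place of 19 for CK at -5.3 against 10.2 ℃. The cause of these changes was not tested.

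A replicate block called 38 members in ABA-100 at 9.7 against -5.3 ℃ in place of 37 and changed no other count. The block used the replicate numbers of the sample titles. These differ from the last number of the submitters' library codes in ABA-100 (9.7 ℃) and in CK (9.7 ℃) replicate 3. The block may therefore join the wrong libraries there. Deviations of libraries with the same number had a median r of 0.00 (-0.10 to 0.28), with 7 of 84 pairs over 0.1, and those with different numbers had r of -0.19 to 0.11. As a hint from the data, 13 of 24 libraries correlated best with their own number. The check and the block joined libraries of CK and ABA-100, which came from different seedlings, so they could not settle a pairing by seedling. Since not every pair passed 0.1 and no source says what a number marks, the libraries were treated as unpaired. Contrasts between stages thus take libraries that may share seedlings as independent. TPM without counts per unigene leaves the counting error unknown, which limits the 40 members under 10 TPM most.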
